A study of Mus musculus with 4 samples.

Results

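The genes described here are 10 genes of histamine and eicosanoid signalling, read in mouse CD4+ T cells. They are Hdc, Alox5, Alox5ap, Ltc4s, Alox8, Cysltr1, Ltb4r1, Ptgs2, Ptger2 and Ptger4. They were picked by name, with their values in these libraries known, out of 21937 gene symbols in a table of raw read counts. All 10 had a row, and 6 of them averaged at least 2 CPM (reads scaled to a common library size) over the libraries, the level from which genes were judged. The 4 RNA sequencing libraries came from CD4+ T cells of the spleen, taken at 6 weeks of age from mice of strain B6. The cells had been activated by PMA and ionomycin, drugs that act on protein kinase C and calcium signalling below the T cell receptor. The groups were a library labelled as the double knockout (DKO) of Itch and WWP2, an Itch KO library (Itchf/f Cd4cre), a WWP2 KO library (WWP2-/-) and a wild-type (WT) library. Cd4cre deletes floxed alleles in the T cell lineage, so other cells of those mice can keep Itch; the labels do not say which alleles the double knockout carried. Itch and WWP2 are ubiquitin ligases of the NEDD4 family.

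Each genotype had 1 library, so no difference below has a replicate check, and no p-value is given. The sources used here give neither the number of mice per library nor the length of stimulation. Library totals lay between 17130747 and 17990392 reads. Wwp2 had 1135 reads in the library labelled double KO, 1332 in Itch KO, 4 in WWP2 KO, with 1363 in WT. The first of these values goes against its label, and the library is called the labelled double KO throughout. Itch had between 1914 and 2389 reads in every library, and a count over the whole gene cannot check a deletion of part of it. The 14 T cell markers were read in all libraries, with a summed level between 4316 and 4491 CPM. That sum holds markers that moved in opposite directions: by the size rule given further on, 3 of the 14 were higher in the labelled double KO than in WT and 1 was lower. Cd4 had 508 CPM in the labelled double KO, against 235 CPM in WT, with Cd3g and Thy1 also higher. Cd5, a T cell surface glycoprotein gene, had 295 CPM in the labelled double KO, against 697 CPM in WT.

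As background, histamine is made from the amino acid histidine by histidine decarboxylase, the product of Hdc, in mast cells, basophils and some activated leukocytes. Eicosanoids are made from arachidonic acid. Lipoxygenases start the route to leukotrienes, which recruit leukocytes and constrict airways, and cyclooxygenases start the route to prostaglandins. T cells respond to both families through receptors coupled to G proteins, and the prostaglandin receptors EP2 and EP4 are known to restrain T cell activation through cyclic AMP.

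Sequence around the start site is shown for the members on which the results below turn, since promoter elements lie there. Each is 300 bases of RefSeq on GRCm38.p6, from 250 before to 50 after the annotated start, on the gene's own strand. Of the 10 genes, 8 had an entry; Cysltr1 and Alox5ap are named only. The windows are chr2:126618629-126618928 (minus strand) for Hdc, chr14:55765712-55766011 (plus) for Ltb4r1, chr11:69197794-69198093 (minus) for Alox8 and chr1:150099781-150100080 (plus) for Ptgs2. Ptgs2 was lower in the labelled double KO than in Itch KO, as was Ptger4, whose window is not shown. The build of the counts is mm9, so these positions do not apply to the count table. Capitals mark matches on either strand to GATAA (GATA factors), GGAAA (the NFAT core), TGANTCA (AP-1), TGACG (the cyclic AMP response core) and GGGCGG (the GC box).
Hdc: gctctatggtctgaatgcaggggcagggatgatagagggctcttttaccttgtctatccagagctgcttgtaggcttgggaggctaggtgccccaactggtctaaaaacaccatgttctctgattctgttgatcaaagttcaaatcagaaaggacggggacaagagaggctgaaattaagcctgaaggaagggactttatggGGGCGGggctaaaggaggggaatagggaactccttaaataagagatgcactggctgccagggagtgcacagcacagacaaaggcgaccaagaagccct
Ltb4r1: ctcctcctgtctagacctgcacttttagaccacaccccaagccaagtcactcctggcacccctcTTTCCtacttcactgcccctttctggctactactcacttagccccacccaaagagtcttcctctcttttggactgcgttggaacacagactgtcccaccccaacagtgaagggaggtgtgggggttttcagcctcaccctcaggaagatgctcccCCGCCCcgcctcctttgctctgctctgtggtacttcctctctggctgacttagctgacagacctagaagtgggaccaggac
Alox8: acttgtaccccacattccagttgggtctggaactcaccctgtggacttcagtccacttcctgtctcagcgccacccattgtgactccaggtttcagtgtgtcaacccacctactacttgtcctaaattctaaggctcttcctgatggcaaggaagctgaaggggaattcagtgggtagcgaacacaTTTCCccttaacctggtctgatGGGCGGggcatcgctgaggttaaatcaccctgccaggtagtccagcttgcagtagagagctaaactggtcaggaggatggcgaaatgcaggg
Ptgs2: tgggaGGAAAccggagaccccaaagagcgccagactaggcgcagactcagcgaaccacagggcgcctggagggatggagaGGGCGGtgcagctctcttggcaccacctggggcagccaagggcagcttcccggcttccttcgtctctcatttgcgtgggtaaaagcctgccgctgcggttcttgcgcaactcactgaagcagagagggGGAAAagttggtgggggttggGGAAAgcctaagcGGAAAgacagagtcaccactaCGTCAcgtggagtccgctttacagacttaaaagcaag
The Hdc window held 1 match, a GC box starting 48 bases before the start site. The windows of Ltb4r1 and Alox8 each held 1 NFAT core and 1 GC box. The Ptgs2 window held 4 NFAT cores, 1 GC box and 1 cyclic AMP response core. None of the 4 held GATAA or TGANTCA. Over 32851 promoter windows of the same length, 25.4% held GATAA, 61.3% GGAAA, 7.81% TGANTCA, 20.8% TGACG and 35.7% GGGCGG. No match shared bases with another in these windows, and a match is a string of letters, not a shown binding site.

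**Figure D1:**
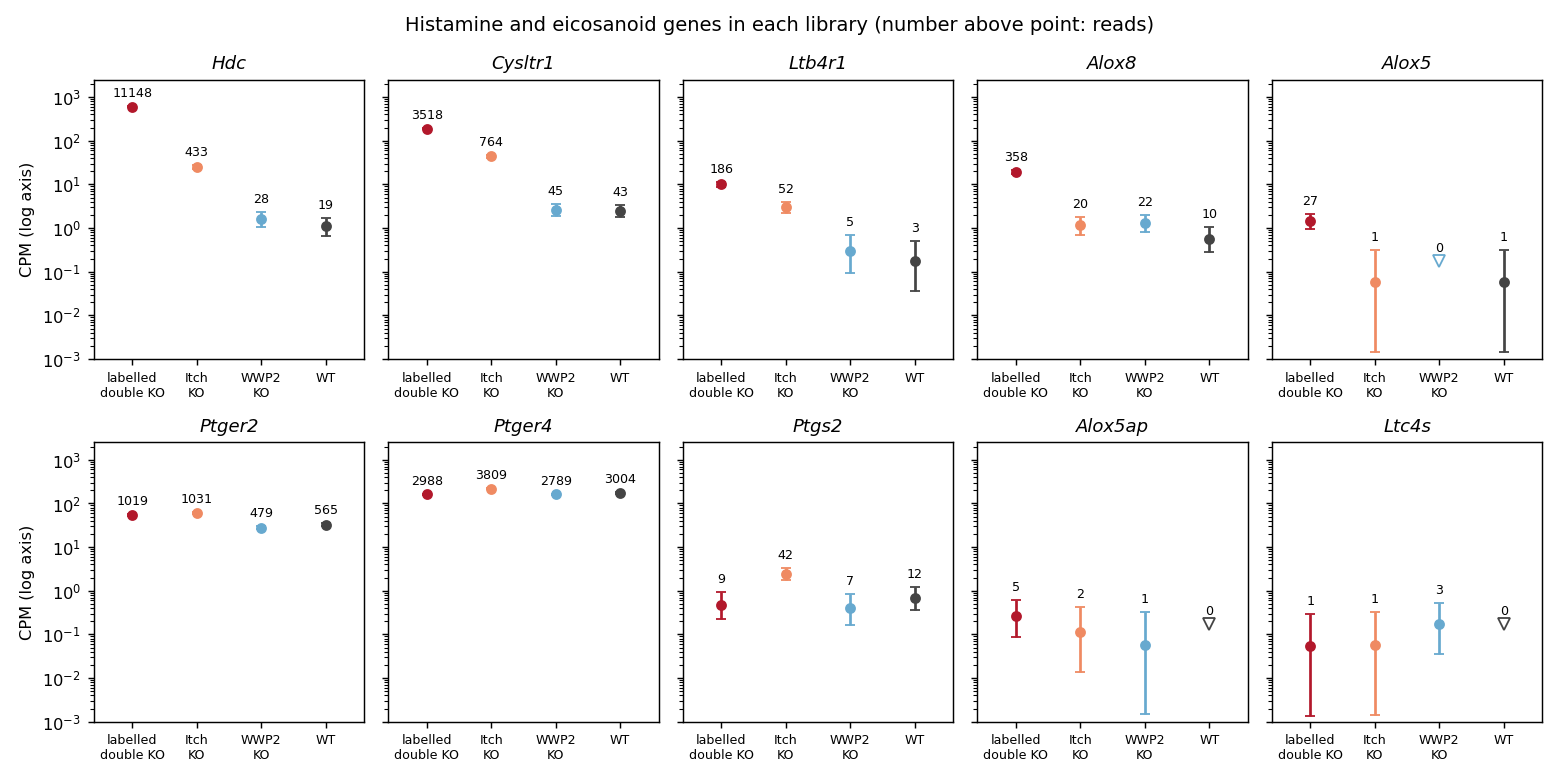
Level of each of the 10 genes in each library, in CPM on a log axis, with the 95% Poisson interval (counting error only); the number at each point is the read count, and an open triangle is the limit that 0 reads allow (3 reads). Levels are not per gene length, so libraries can be compared within a panel but genes cannot be compared between panels; Hdc, Cysltr1 and Ltb4r1 step down in the order labelled double KO, Itch KO, then WWP2 KO and WT, while Ptgs2 is highest in Itch KO.

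Hdc, the histamine-forming enzyme, gave the widest range of the 10 genes. It had 11148 reads in the labelled double KO, 433 in Itch KO, 28 in WWP2 KO, against 19 in WT. The levels were 599.8 CPM (95% Poisson interval 589 to 611), 25.0 CPM (22.7 to 27.4), 1.63 CPM (1.09 to 2.36) and 1.10 CPM (0.660 to 1.71) in the same order. These intervals cover counting error only and no spread between libraries, since each genotype had 1 library. A count of reads is also not a count of separate RNA molecules, so they may be too narrow even for counting error. WWP2 KO and WT could not be told apart at this depth, and the other libraries stood clear of them and of each other. In bulk libraries like these, more cells holding an RNA and more of it per cell cannot be told apart. Hdc was 24.0-fold higher in the labelled double KO than in Itch KO (95% counting interval 21.8 to 26.5) and 367-fold higher than in WWP2 KO (254 to 553).

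Other genes of the histamine system differed far less between libraries or had few reads. Of 11 such genes on the list, Hdc included, 9 had a read in some library and 4 reached 2 CPM. Hrh2, the histamine H2 receptor, which raises cyclic AMP, had 772 reads in the labelled double KO, 437 in Itch KO, 370 in WWP2 KO, with 351 in WT. That is 2.05-fold higher in the labelled double KO than in WT (1.81 to 2.33). The vesicular monoamine transporter gene Slc18a2, which loads histamine into granules in mast cells, had 46 reads in the labelled double KO, 41 in Itch KO, 51 in WWP2 KO, against 54 in WT. No library had a read of Hnmt or of Aoc1 (in the table as Abp1), the enzymes that break histamine down, which allows up to 0.175 CPM in the shallowest library (3 reads). Hrh1 had 1 read, in Itch KO.

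Since mast cells and basophils are the classical source of Hdc, their markers were read beside it. Of 13 mast cell markers, 8 had 0 reads in every library, among them the IgE receptor genes Fcer1a and Ms4a2 and the protease genes Cma1, Mcpt4, Tpsb2 and Tpsab1. Cpa3, another mast cell protease gene, had 1 read in the labelled double KO, 1 in Itch KO, 0 in WWP2 KO, with 2 in WT. The summed mast cell list ran against Hdc, with 4.79 CPM in the labelled double KO, 11.1 in Itch KO, 28.8 in WWP2 KO, against 24.9 in WT. Nearly all of it was Kit, the stem cell factor receptor gene, with 85 reads in the labelled double KO and 188, 493 and 429 in Itch KO, WWP2 KO and WT. The 7 basophil markers summed to 1.67 CPM in the labelled double KO, 0.634 in Itch KO, 2.16 in WWP2 KO, with 3.35 in WT. In the labelled double KO, Cd200r3 had 14 of the 31 reads of that sum. It had 8 of 11 in Itch KO, 35 of 37 in WWP2 KO and 56 of 58 in WT. Prss34, on the basophil list, and Siglec5, on the eosinophil list, had reads in the labelled double KO alone, 2 and 4. Mcpt8, a basophil protease gene, had 12 reads in the labelled double KO, 0 in Itch KO, 2 in WWP2 KO, against 0 in WT.

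Marker lists of other leukocytes differed in level and in order between libraries. The summed lists lay between 1.96 and 4.30 CPM for neutrophils, 2.33 and 2.91 for platelets and megakaryocytes, 1.56 and 4.67 for B cells, 2.86 and 8.13 for eosinophils, and 7.86 and 18.2 for NK and CD8 T cells. Mpo, the myeloperoxidase gene on the neutrophil list, had 21 reads in the labelled double KO, 5 in Itch KO, 1 in WWP2 KO, with 0 in WT, the order of Hdc, while S100a8, Elane, Ltf and Retnlg were at 0 in all libraries. Ccr3, a chemokine receptor gene on the eosinophil list, was 2.74-fold higher in the labelled double KO than in WT (1.93 to 3.94). The monocyte and macrophage list had 20.4 CPM in the labelled double KO, 6.69 in Itch KO, 3.67 in WWP2 KO, with 3.75 in WT, an order like that of Hdc. Cd68, a lysosomal protein gene, made up most of it, with 354, 103, 56 and 52 reads in that order, 6.35-fold higher in the labelled double KO than in WT (4.74 to 8.67). The defining genes Fcgr1, Marco, C1qa and C1qc were at 0 in all libraries, and Csf1r had 2 reads in the labelled double KO and 0 elsewhere. Dendritic cell markers summed to 23.7 CPM in the labelled double KO, 17.3 in Itch KO, 5.77 in WWP2 KO, against 8.31 in WT, led by the chemokine receptor gene Xcr1 with 322, 113, 48 and 54 reads, 5.56-fold higher in the labelled double KO than in WT (4.16 to 7.57). The sums of both lists in the labelled double KO were about as high as its Alox8 level of 19.3 CPM. Levels are not per gene length, so these values cannot be compared as amounts of RNA. Flt3 and Clec9a had at most 2 reads in any library. The part of such cells in the leukotriene and histamine values was not tested.

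**Figure D2:**
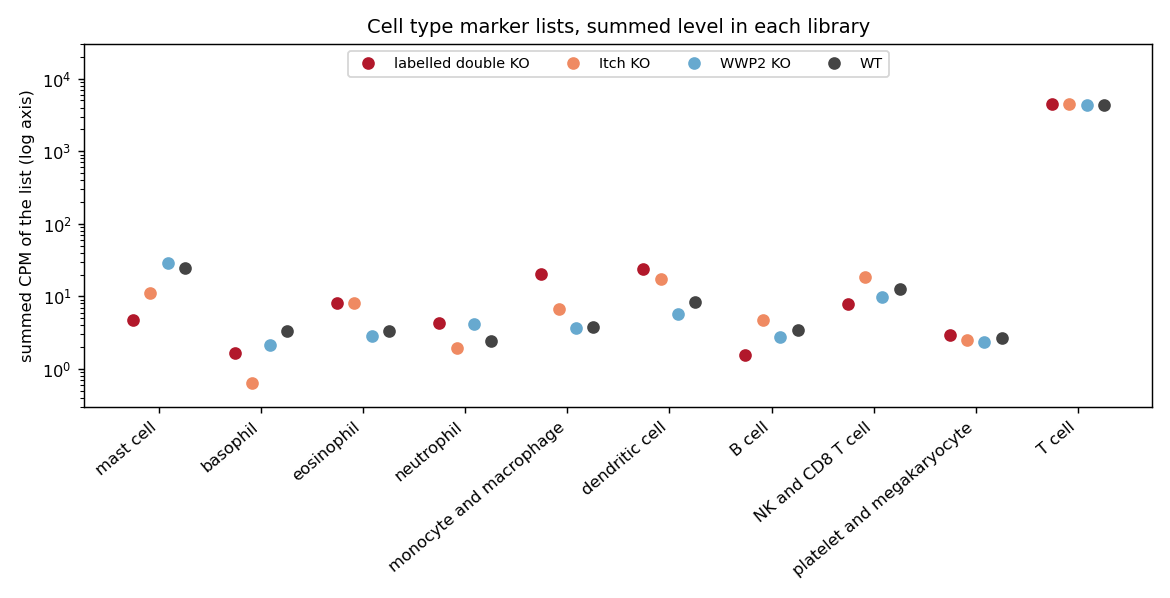
Summed level of each cell type marker list in each library, in CPM on a log axis, 1 point per library. The T cell sum lies between 4316 and 4491 CPM in all 4 libraries, although single T cell markers moved both ways (Cd4 higher and Cd5 lower in the labelled double KO than in WT), while the mast cell list is lowest in the labelled double KO (4.79 CPM) and the monocyte and macrophage list highest there (20.4 CPM).

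The enzymes that start leukotriene synthesis were close to unread. Alox5, the 5-lipoxygenase, had 27 reads in the labelled double KO, 1 in Itch KO, 0 in WWP2 KO, with 1 in WT. Its level in the labelled double KO, 1.45 CPM (0.957 to 2.11), was 25.2-fold the WT level (4.15 to 1031). The wide interval comes from the single WT read, and the gene stayed below the 2 CPM minimum. Alox5ap, whose product presents arachidonic acid to 5-lipoxygenase, had 5 reads in the labelled double KO, 2 in Itch KO, 1 in WWP2 KO, against 0 in WT. Ltc4s, which joins glutathione to the leukotriene, had 1 read in the labelled double KO, 1 in Itch KO, 3 in WWP2 KO, with 0 in WT. For these last genes no difference between libraries was detectable at this depth. Pla2g4a, the phospholipase that frees arachidonic acid in most leukocytes, had at most 2 reads in any library.

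Alox8, the mouse 8-lipoxygenase, had 358 reads in the labelled double KO, 20 in Itch KO, 22 in WWP2 KO, against 10 in WT. The labelled double KO was highest, at 19.3 CPM (17.3 to 21.4), and the intervals of the other 3 levels overlapped. It was 33.4-fold higher there than in WT (17.9 to 70.2), 16.7-fold higher than in Itch KO (10.7 to 27.7) and 15-fold higher than in WWP2 KO (9.76 to 24.3). Itch KO was at 2.0-fold the WT level (0.893 to 4.78) and WWP2 KO at 2.22-fold (1.01 to 5.26). The neighbouring gene Gucy2e, a guanylate cyclase gene, had 113 reads in the labelled double KO, 15 in Itch KO, 23 in WWP2 KO, with 19 in WT. Alox12b, on the other side, had 0 in all libraries.

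Later steps of the leukotriene route were read at higher counts. Lta4h, which makes leukotriene B4, had 1077 reads in the labelled double KO, 987 in Itch KO, 929 in WWP2 KO, against 990 in WT. In all 5 comparisons of libraries made here its counting interval included 1. Abcc1, an exporter of leukotriene C4 and other glutathione conjugates, had 5037 reads in the labelled double KO, 4235 in Itch KO, 2808 in WWP2 KO, with 2910 in WT, or 1.61-fold (1.54 to 1.69) and 1.45-fold (1.39 to 1.53) the WT level in the labelled double KO and in Itch KO. Ggt1, a gamma-glutamyl transferase that trims leukotriene C4 to D4, had 215 reads in the labelled double KO, 47 in Itch KO, 11 in WWP2 KO, against 11 in WT. It was 18.2-fold higher in the labelled double KO than in WT (9.99 to 37.1) and 4.27-fold higher in Itch KO than in WT (2.18 to 9.13).

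Among the leukotriene receptors, Cysltr1, the receptor for leukotriene D4 and related cysteinyl leukotrienes, had 3518 reads in the labelled double KO, 764 in Itch KO, 45 in WWP2 KO, with 43 in WT. In CPM that was 189 (183 to 196) in the labelled double KO, 44.0 (41.0 to 47.3) in Itch KO, 2.62 (1.91 to 3.51) in WWP2 KO, against 2.48 (1.79 to 3.34) in WT. WWP2 KO lay at 1.06-fold the WT level (0.681 to 1.65), whereas the labelled double KO was 76.3-fold higher than WT (56.5 to 106). It was also 4.30-fold higher than Itch KO (3.97 to 4.65). In the RefSeq annotation of GRCm38.p6 the gene Gm5127 overlaps Cysltr1 on the X chromosome. Gm5127 had 351 reads in the labelled double KO, 72 in Itch KO, 5 in WWP2 KO, with 6 in WT, and the sources used here do not say how reads shared by both genes were counted.

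Ltb4r1, the high-affinity receptor for leukotriene B4, which guides leukocytes to inflamed tissue, had 186 reads in the labelled double KO, 52 in Itch KO, 5 in WWP2 KO, against 3 in WT. Ltb4r1 was 57.8-fold higher in the labelled double KO than in WT (19.5 to 283) and 3.34-fold higher than in Itch KO (2.44 to 4.63). Itch KO was 17.3-fold higher than WT (5.61 to 86.7), on 3 WT reads. Its neighbour Ltb4r2, the low-affinity receptor gene, had 0 reads in all libraries.

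Cysltr2, the second cysteinyl leukotriene receptor gene, had 310 reads in the labelled double KO, 261 in Itch KO, 63 in WWP2 KO, with 39 in WT. It was 7.42-fold higher in the labelled double KO than in WT (5.30 to 10.6) and 6.69-fold higher in Itch KO than in WT (4.77 to 9.62). Its level in the labelled double KO was 1.11-fold that in Itch KO (0.937 to 1.31), a difference within counting error. Cysltr1 and Ltb4r1 thus went on to a higher level in the labelled double KO, and Cysltr2 did not differ beyond counting error between these libraries. The remaining 4 receptor genes on the list, Ltb4r2, Gpr17, Oxgr1 and Fpr2, had no read in any library.

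On the prostaglandin side, Ptgs2, the inducible cyclooxygenase, had 9 reads in the labelled double KO, 42 in Itch KO, 7 in WWP2 KO, against 12 in WT. Here Itch KO was the highest library, at 2.42 CPM (1.75 to 3.27), and the intervals of the other libraries overlapped. It was 3.50-fold the WT level in Itch KO (1.81 to 7.30). Ptgs2 was 5.0-fold lower in the labelled double KO than in Itch KO (2.40 to 11.7), the opposite order to Hdc, Cysltr1 and Ltb4r1. Its mean of 1.0 CPM kept Ptgs2 below the minimum of 2 CPM. Ptgs1, the constitutive cyclooxygenase gene, had 1 read in the labelled double KO, 4 in Itch KO, 1 in WWP2 KO, with 0 in WT, and the terminal synthase genes Ptges, Ptgis and Tbxas1 had at most 3 reads in any library.

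Ptger2, the EP2 receptor gene, had 1019 reads in the labelled double KO, 1031 in Itch KO, 479 in WWP2 KO, against 565 in WT. Its levels formed an upper pair, 54.8 CPM (51.5 to 58.3) in the labelled double KO and 59.4 CPM (55.9 to 63.2) in Itch KO. The lower pair was 27.9 CPM (25.5 to 30.6) in WWP2 KO, with 32.6 CPM (30.0 to 35.4) in WT. Relative to WT the labelled double KO was at 1.68-fold (1.52 to 1.87) and Itch KO at 1.82-fold (1.64 to 2.02), both short of 2-fold. Between the labelled double KO and Itch KO the fold was 0.922 (0.845 to 1.01), within counting error. WWP2 KO was at 0.857-fold the WT level (0.758 to 0.970), a difference beyond counting error.

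Ptger4, the EP4 receptor gene, was the flattest of the 6 genes above the minimum, with 2988 reads in the labelled double KO, 3809 in Itch KO, 2789 in WWP2 KO, against 3004 in WT. Itch KO stood highest, at 219.6 CPM (213 to 227), or 1.27-fold the WT level (1.21 to 1.33). The labelled double KO, at 161 CPM (155 to 167), was at 0.928-fold the WT level (0.882 to 0.976) and at 0.732-fold the Itch KO level (0.698 to 0.768). The labelled double KO and WWP2 KO, at 163 CPM (157 to 169), did not differ beyond counting error, with a fold of 0.988 (0.938 to 1.04).

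The other prostanoid receptor genes took different courses. Ptgir, the prostacyclin receptor gene, had 832 reads in the labelled double KO, 73 in Itch KO, 39 in WWP2 KO, with 21 in WT, 37.0-fold higher in the labelled double KO than in WT (24.0 to 60.0) and 3.47-fold higher in Itch KO than in WT (2.11 to 5.95). Ptger1, the EP1 receptor gene, had 790 reads in the labelled double KO, 373 in Itch KO, 412 in WWP2 KO, against 354 in WT, and was 2.08-fold higher in the labelled double KO than in WT (1.83 to 2.37). Tbxa2r, the thromboxane receptor gene, went the other way, with 65 reads in the labelled double KO, 42 in Itch KO, 100 in WWP2 KO, with 122 in WT. Its fold in Itch KO over WT was 0.344 (0.236 to 0.492). The level of Tbxa2r in the labelled double KO was 3.50 CPM (2.70 to 4.46), against 7.04 CPM (5.84 to 8.40) in WT. That difference did not pass the size rule given further on. Ptgdr2 (in the table as Gpr44), the prostaglandin D2 receptor gene of type 2 helper cells in human, had between 1 and 3 reads. Hpgds, which makes prostaglandin D2 in blood cells, had 221 reads in the labelled double KO, 46 in Itch KO, 62 in WWP2 KO, against 77 in WT, 2.68-fold higher in the labelled double KO than in WT (2.06 to 3.52).

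**Figure D3:**
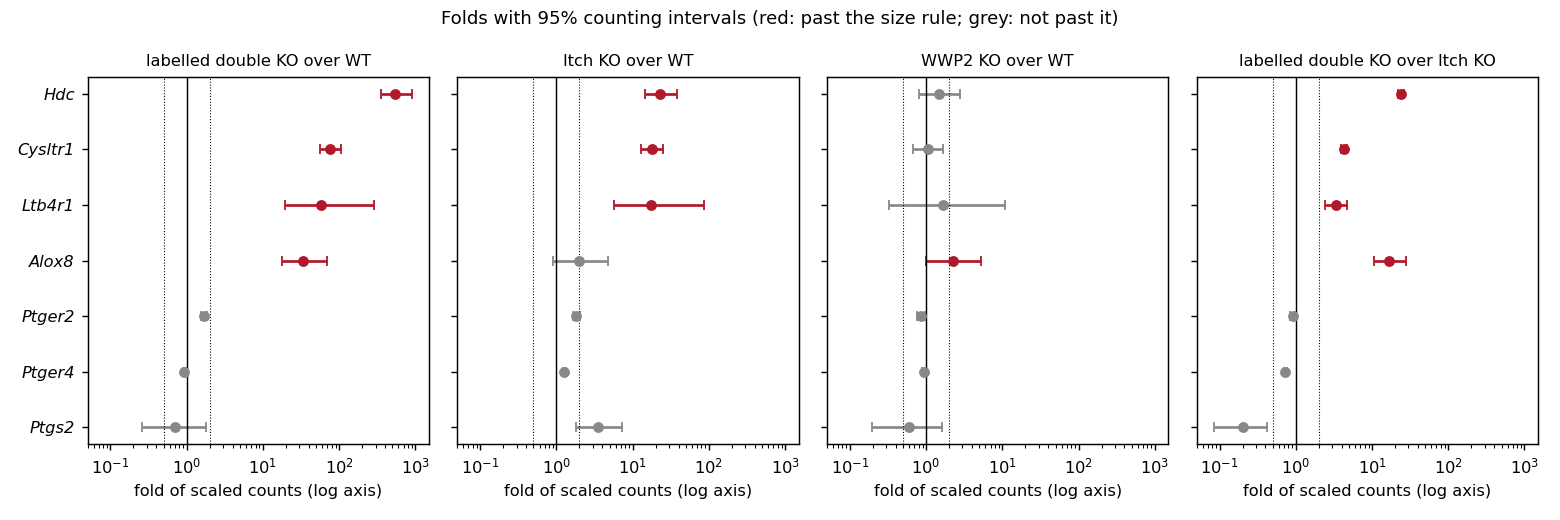
Fold of scaled counts (log axis) with its 95% counting interval for 7 of the genes in 4 comparisons of single libraries; dotted lines mark 2-fold either way, red points pass the 2-fold rule and grey points do not. In WWP2 KO over WT the folds of Hdc, Cysltr1 and Ltb4r1 have intervals that include 1. In the labelled double KO over Itch KO, Ptgs2 and Ptger4 lie on the opposite side from Hdc, Cysltr1, Ltb4r1 and Alox8. The interval of Ptger2 in that comparison includes 1.

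Counted by a rule of size, a gene passed when its mean was at least 2 CPM, its log2 ratio of scaled counts (prior count of 2) reached 1 either way, and its 95% counting interval left out 1. In the labelled double KO against WT, 4 of the 6 members above the minimum were higher (Hdc, Cysltr1, Ltb4r1 and Alox8) and 0 were lower. Among all 9926 genes judged, 12.3% were higher and 6.34% lower in that comparison. Ltb4r1 and Alox8 reached the minimum through the labelled double KO, their mean without it being 1.15 and 1.0 CPM. These values chose the members, so nothing is read from the counts.

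In Itch KO against WT, 3 of the 6 were higher (Hdc, Cysltr1 and Ltb4r1) and 0 lower, beside 4.89% of all genes higher and 0.846% lower. In WWP2 KO against WT, 1 of the 6, Alox8, was higher and 0 lower, beside 0.282% higher and 0.161% lower of all genes. That 1 call rests on 22 and 10 reads. Against Itch KO the labelled double KO had 4 of the 6 higher, the same genes as against WT, beside 9.18% of all genes higher and 5.16% lower. Against WWP2 KO it had 4 higher and 0 lower, beside 11.6% and 6.05%. The comparisons with WT share the WT library, and those with the labelled double KO share that library.

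The wider pathway, in 6 lists, held 78 genes beside the 10, of which 28 reached 2 CPM. Ggt1, of these 28, reached that level through the labelled double KO, so its place in the counts below rests on that library. Its level there was 11.6 CPM, against 2.71 CPM for Itch KO, 0.642 CPM for WWP2 KO and 0.634 CPM for WT. In the labelled double KO against WT, 7 of the 28 were higher (Hrh2, Mgll, Ggt1, Cysltr2, Hpgds, Ptger1 and Ptgir) and 0 lower, beside 12.3% and 6.34% of all genes judged, with a median log2 ratio of 0.34 beside -0.03 over all of them. In Itch KO against WT, 3 were higher (Ggt1, Cysltr2 and Ptgir) and 1, Tbxa2r, was lower, beside 4.89% and 0.846% of all genes, with a median of -0.07 beside -0.02. In WWP2 KO against WT, 0 of the 28 passed in either direction, beside 0.282% higher and 0.161% lower of all genes, with a median of -0.01 beside -0.01. Against Itch KO the labelled double KO had 4 higher (Mgll, Ggt1, Hpgds and Ptgir) and 0 lower, beside 9.18% and 5.16%. Against WWP2 KO it had 6 higher (Pla2g12a, a secreted phospholipase A2 gene, with Mgll, Ggt1, Cysltr2, Hpgds and Ptgir) and 0 lower, beside 11.6% and 6.05%.

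By list, leukotriene receptors had 3 of 3 genes higher in the labelled double KO than in WT, 2 of them members, where 12.3% of all genes judged were higher. Lipoxygenase and leukotriene enzymes had 2 of 4 and histamine genes 2 of 4, each with 1 member among them. Of the genes so counted, Ltb4r1, Alox8 and Ggt1 reached the minimum through the labelled double KO. The members were chosen from these values, so nothing is read from these shares. Prostanoid receptors had 2 of 6 higher, neither a member. Prostanoid enzymes and transporters had 1 of 6 and arachidonate release and recycling genes 1 of 11, shares near that of all genes. Mgll, a lipase that frees arachidonic acid from 2-arachidonoylglycerol, was the last of these, with 413 reads in the labelled double KO, 150 in Itch KO, 135 in WWP2 KO, with 119 in WT. The best-read genes of that group did not pass, Acsl4, which returns arachidonic acid to lipids, lying at 1.04-fold in the labelled double KO over WT (0.984 to 1.09). Ptges3, a cytosolic prostaglandin E synthase that is also a chaperone of HSP90, was at 0.612-fold the WT level in the labelled double KO (0.588 to 0.637), not past the rule.

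**Figure D4:**
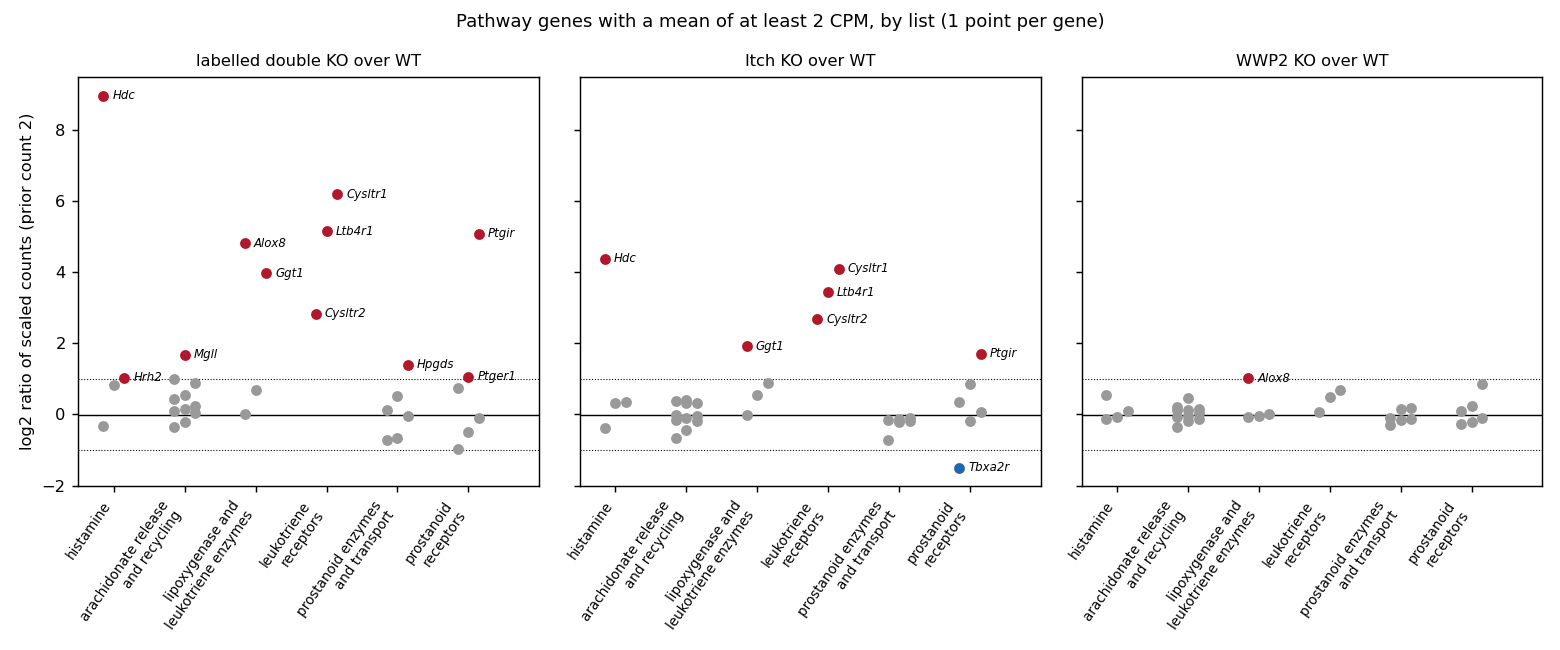
Log2 ratio of scaled counts (prior count of 2) for each pathway gene with a mean of at least 2 CPM, by list, in 3 comparisons with the WT library; the solid line is the median over all genes judged, dotted lines mark 2-fold, and red and blue points pass the rule as higher and lower. Leukotriene receptor genes stand above the line in the labelled double KO and in Itch KO, and in WWP2 KO only Alox8 passes.

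That library can also be set against the product of the single folds, a description added after the values were seen. For Hdc the product of the Itch KO and WWP2 KO folds over WT was 34.0 and the labelled double KO fold 547, which is 16.1 times the product (8.93 to 29.1, 95% counting interval from a normal approximation). Alox8 came to 7.51 times its product (3.14 to 18) and Cysltr1 to 4.06 times (2.65 to 6.21). Ltb4r1 lay at 1.98 times its product, with an interval that includes 1 (0.458 to 8.56). Ptger2 was at 1.08 times (0.927 to 1.25), Ptger4 at 0.780 times (0.727 to 0.837) and Ptgs2 at 0.339 times (0.104 to 1.10). Without regard to an interval, 4 of the 6 members above the minimum were at least 2-fold above their product on the scale with a prior count, beside 8.83% of all genes above and 5.29% below. These values chose the members, and Ltb4r1 and Alox8 reached the minimum through the labelled double KO, so nothing is read from that count. Since this library held Wwp2 reads, the excess describes the library, whatever its genotype.

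**Figure D5:**
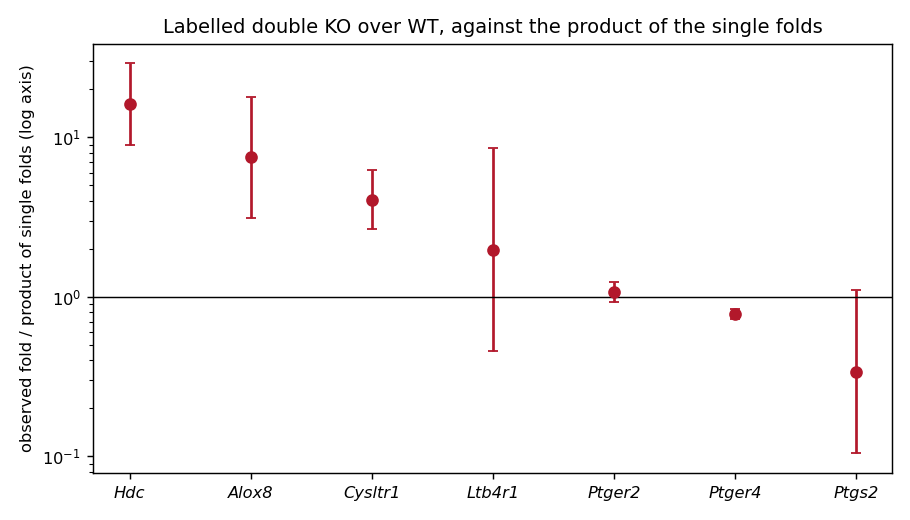
Ratio of the observed labelled double KO fold over WT to the product of the Itch KO and WWP2 KO folds over WT (log axis), with the 95% counting interval, for the 7 genes with a read in all 4 libraries. Hdc lies at 16.1, Alox8 at 7.51 and Cysltr1 at 4.06, while Ptger2 lies at 1.08 and Ptgs2 at 0.339.

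The genes most like each member over the 4 libraries were found by Euclidean distance of log2 CPM, each gene centred on its own mean, among 9162 named genes. Hdc had no gene within a distance of 1. The nearest were Efna5, an ephrin gene (1.01), Il6, a cytokine gene (1.04), and Sv2c, a synaptic vesicle gene (1.23). Efna5 had 1113 reads in the labelled double KO, 17 in Itch KO, 1 in WWP2 KO, against 0 in WT. Cysltr1 was nearest to the chemokine gene Cxcl3 (0.54), to Rnf152 (0.58) and to the inhibitory receptor gene Havcr2 (0.62), with 7 genes within 1. Alox8 was nearest to Esm1 (0.26), Fbln1 (0.40) and Specc1 (0.44), and Ltb4r1 to the ion channel gene Trpm6 (0.21), the mitotic kinesin gene Kif18b (0.26) and Pros1 (0.42). Ptger2 lay close to Kif13a (0.10), and to the adhesion genes Alcam (0.10) and Itgav (0.15), with 3695 genes within 1, and Ptger4 had 7459 genes within 1, the nearest being Tex10 (0.04), Rab11fip1 (0.05) and Prkca (0.06).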

How the data were processed

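RNA was measured in 4 libraries made after mRNA enrichment, per the labels' protocols. The authors deposited raw read counts per gene symbol, with no normalization. HTSeq 0.7.1, TopHat 1.4.1, Bowtie 1.0.0 and build mm9 stand in the submitters' processing notes; the sources used here do not give the annotation, strand setting or filters, so overlapping or antisense genes may share reads. Of 21937 symbols, 6483 had no read. Counts were scaled here with edgeR 4.0.16 (TMM factors, labelled double KO 1.03, Itch KO 0.983, WWP2 KO 1.00, WT 0.984) in R 4.3.3; DESeq2 1.42.0 gave size factors as an alternative. Intervals of levels are exact Poisson and those of folds exact conditional binomial, at 95%. A fold against 0 reads is a bound at 3 reads in that library. The members were chosen from these values and each genotype has 1 library, so nothing was tested. Simulated counts with known folds served to check the coding of the size rule, with an outcome required only where libraries had no spread beyond counting error. They do not measure the spread between mice. Named genes were the members, Itch and Wwp2, list genes past the rule or best read, the 3 nearest patterns, and defining, best-read or unread markers; Hrh1, Hnmt, Aoc1, Ptgdr2, Pla2g4a, Ptgs1, the terminal prostanoid synthases, unread leukotriene receptors, Mpo, Siglec5, Prss34 and gene neighbours were added after their values were seen. Members, 6 pathway lists, 10 marker lists and motifs were chosen with earlier results of these data known. RefSeq (GRCm38.p6) gave promoter sequences and gene neighbours only. Other computation used scipy 1.17.1, matplotlib 3.10.9, pandas 2.3.3 and numpy 2.4.6 in Python 3.11.15.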

Additional observations from a re-analysis of the deposited data

How the results depend on the processing

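With 1 library per genotype, depth and the minimum level limit what can be said. The 41 log2 ratios of members with more than 3 reads in either library kept their direction under DESeq2 size factors, library totals alone, a prior count of 0.5, no minimum level and a minimum of 10 CPM, except that of Ptger4 in the labelled double KO over WWP2 KO, which was -0.02 in the main setting and 0.03 with library totals alone and passed the rule in neither. Library totals alone made Ptger2 a further call in the labelled double KO over WWP2 KO (log2 ratio 1.02, 5 members in place of 4). No minimum level added Alox5 in the labelled double KO over WT, over Itch KO and over WWP2 KO, Ptgs2 as higher in Itch KO over WT, and Ptgs2 as lower in the labelled double KO over Itch KO. A minimum of 10 CPM left 2 members called in the labelled double KO over WT, 2 over Itch KO and 2 over WWP2 KO, and 0 in WWP2 KO over WT; the construction of that setting removes Ltb4r1 and Alox8.

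For pathway genes, members included, no minimum level gave 19 calls in place of 11 in the labelled double KO over WT, 11 in place of 7 in Itch KO over WT, 3 in place of 1 in WWP2 KO over WT, 14 in place of 8 in the labelled double KO over Itch KO and 16 in place of 10 over WWP2 KO. A minimum of 10 CPM gave 6, 3, 0, 4 and 5 in the same order. Over all genes, no minimum level gave 1924 higher in the labelled double KO over WT (1220 in the main setting), 1421 over Itch KO (911) and 1780 over WWP2 KO (1155). It gave 183 lower in Itch KO over WT (84), and 117 higher (28) and 56 lower (16) in WWP2 KO over WT. The minimum of 10 CPM gave 666, 452 and 625 higher for the labelled double KO over WT, Itch KO and WWP2 KO, and 392 lower over WWP2 KO (601). It gave 233 higher (485) and 45 lower in Itch KO over WT, and 6 higher and 7 lower in WWP2 KO over WT. No paired analysis was possible because each group has 1 library, and for the same reason no replicate could be left out.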

Other observations

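Several pathway genes below 2 CPM, chosen after their values were seen, had reads mainly in the labelled double KO. Hpgd, which inactivates prostaglandin E2, had 51 reads in the labelled double KO, 1 in Itch KO, 1 in WWP2 KO, with 0 in WT, at least 15.9-fold higher in the labelled double KO than in WT. Dpep2, a dipeptidase that turns leukotriene D4 into E4, had 11, 0, 0 and 1 reads in the same order, and Cyp4f18, which degrades leukotriene B4, had 8, 0, 0 and 1. Hrh4, the histamine H4 receptor gene, had 23 reads in the labelled double KO, 16 in Itch KO, 1 in WWP2 KO, against 0 in WT, at least 7.15-fold and 5.33-fold higher than WT in the labelled double KO and in Itch KO.

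Ptgir, a receptor gene outside the 10, was 10.6-fold higher in the labelled double KO than in Itch KO (8.37 to 13.7). Adcy4, an adenylate cyclase gene next to Ltb4r1, had 20 reads in the labelled double KO, 17 in Itch KO, 3 in WWP2 KO, with 1 in WT, and Mgat4b, next to Ltc4s, had 149, 63, 22 and 34 in that order.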
